A study of Mus musculus with 6 samples.

Results

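Sprouty, Spred and dual-specificity phosphatase genes encode feedback brakes on the RAS to ERK cascade. The group described here holds the 3 Sprouty genes Spry1, Spry2 and Spry4, the 3 Spred genes Spred1, Spred2 and Spred3, and the phosphatase genes Dusp4 and Dusp6. These 8 genes were taken by exact symbol from the 43283 gene rows of the expression table. RNA sequencing compared mouse muscle stem cells, which rebuild muscle after damage, after 24 h in culture with the inflammatory lipid prostaglandin E2 (PGE2) or with its solvent DMSO (Vehicle). Each group had 3 libraries, which the submitters call biological triplicates. The cells came from hindlimb muscles of female C57BL/6 mice without genetic modification, aged 8 to 12 weeks per the labels' protocols and 2 to 4 months per the design text. They were sorted as α7 integrin+ CD34+ cells lacking CD45, Sca1, CD31 and CD11b, and both groups were kept in 20% FBS, 40% Low Glucose DMD (spelled as in the labels) and 40% F-10. RNA of 5000 to 10000 cells went into each sample. The sources used here do not give the PGE2 dose or say whether the triplicates came from separate animals, pools or cultures. A p-value therefore measures only the spread among these libraries, some of which may be technical.

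When a growth factor such as FGF or HGF activates its receptor tyrosine kinase, adaptor proteins load RAS with GTP, and RAF, MEK and ERK kinases then pass the signal to the nucleus. ERK-driven transcription switches on Sprouty, Spred and DUSP genes, whose products damp the same cascade at different steps: Sproutys near the receptor and its adaptors, Spreds at RAS and RAF, and the phosphatases at ERK itself. The levels of these transcripts are therefore widely read as a trace of recent ERK activity. In muscle stem cells Spry1 is known for its part in the return to quiescence after injury. PGE2 acts through the receptors EP2 and EP4 on cAMP and the transcription factor CREB, which binds the CRE motif in DNA.

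The genes lie on 8 different chromosomes of the mm10 build. In the GENCODE M21 annotation of that build, Spry1 (ENSMUSG00000037211) spans 37639947 to 37644598 on the plus strand of chromosome 3 and Spry2 (ENSMUSG00000022114) spans 105891947 to 105896819 on the minus strand of chromosome 14. On the strand opposite Spry1 lies Gm42922, not analysed here, and opposite Spry4 lie Gm27369 and Gm27804, both listed at 0 in all 6 libraries. Each of the 3 Sprouty genes has its whole coding sequence in 1 exon, of 939 bases in Spry1, 945 in Spry2 and 900 in Spry4. Spred1 and Spred2 each spread theirs over 7 exons, with 1332 and 1311 coding bases. Sequence of the 250 bases before the RefSeq start site (build GRCm38.p6, which is mm10) was matched for 6 of the 8 genes, all but Spry4 and Dusp4. Spry1 and Spry2 are shown because the PGE2 and Vehicle values overlapped for Spry2 and not for Spry1. A difference between these close relatives in their change with PGE2 was not tested. The stretch of Spred2 is shown because it holds the only match found among the 6 genes. Capitals mark a motif match, so the Spry1 and Spry2 windows, which had none, carry no capitals.
Spry1 (chr3:37639697-37639946, plus strand): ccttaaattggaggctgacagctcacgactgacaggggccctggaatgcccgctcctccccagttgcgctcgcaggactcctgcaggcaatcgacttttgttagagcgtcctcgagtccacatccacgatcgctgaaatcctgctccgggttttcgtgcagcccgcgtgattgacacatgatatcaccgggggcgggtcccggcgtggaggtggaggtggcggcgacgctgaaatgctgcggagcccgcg
Spry2 (chr14:105896820-105897069, minus strand): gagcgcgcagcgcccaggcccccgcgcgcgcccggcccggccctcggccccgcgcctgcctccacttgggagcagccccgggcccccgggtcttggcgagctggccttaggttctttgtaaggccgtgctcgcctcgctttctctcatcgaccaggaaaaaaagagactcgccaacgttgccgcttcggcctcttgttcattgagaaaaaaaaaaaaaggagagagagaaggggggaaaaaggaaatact
Spred2 (chr11:19924379-19924408, plus strand, 30 bases): ccgctgggaagaCGTCAtcgcttccgccct
The motifs searched, on both strands, were the full CRE TGACGTCA, the CRE core TGACG, which the full CRE contains, and the ETS core CCGGAA, since ETS factors are substrates of ERK. The full CRE was in 1.55% of all 32851 windows of this length, the CRE core in 17.8% and the ETS core in 12.0%. Of the 6 feedback genes, 5 had none of the 3 motifs in this window. The share of all windows with none of the 3 was not counted, so this is not read as a lack particular to these genes. Spred2 had 1 CRE core on the reverse strand, 51 bases before its RefSeq start. In GENCODE M21 Spred2 begins at 19924375, so the printed stretch lies inside that span and not before it. The Spred3 window also lies inside the GENCODE span of its gene, and the RefSeq and GENCODE starts differ for Spred1 as well. A match is a description of the letters only.

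Most markers of myogenic cells were present in the libraries. Of 10 myogenic markers, 8 were above 0 in all 6, Pax7, Myf5 and Myod1 among them, while Cdh15 was listed at 0 in Vehicle 3 and Chrdl2 in PGE2 2. Itga7, the gene of the sort marker α7 integrin, ran from 2.69 to 13.2 TPM. The summed level of the 10 ran from 778 to 989 TPM (a length-corrected share of the transcripts) in Vehicle and from 692 to 974 TPM in PGE2. Markers of other cell types had lower sums than the myogenic markers. The summed level of 6 markers ran over Vehicle and PGE2 from 4.16 to 7.42 and 6.90 to 19.9 TPM for endothelial cells, 2.93 to 10.5 and 8.25 to 13.8 TPM for leukocytes, 18.8 to 31.5 and 24.9 to 45.5 TPM for fibro-adipogenic cells, 7.04 to 16.0 and 10.2 to 11.95 TPM for pericytes and smooth muscle, and 3.11 to 5.90 and 2.14 to 9.90 TPM for glia. Single markers were not all below Itga7. Col3a1, at 15.3 to 36.5 TPM, was above Itga7 in every library. Ly6a, the gene of the excluded marker Sca1, read 13.6 TPM in PGE2 2, where Itga7 read 2.69 TPM, and 0 in PGE2 1 and PGE2 3. Emcn read 15.3 TPM in PGE2 3, and Ptprc, the gene of CD45, ran from 0.45 to 4.81 TPM. No marker was at 0 in all 6 libraries, and the part of these cells in the results was not tested. The PGE2 libraries were less alike than the Vehicle libraries: across genes, which are not independent replicates, Pearson's r between log2(TPM + 1) values was 0.807 to 0.846 within PGE2 and 0.886 to 0.926 within Vehicle. PGE2 1 held the highest value of the 6 libraries for 30.1% of tested genes. Genes above 0 numbered from 15400 in PGE2 1 to 19677 in Vehicle 1. The mitochondrial share of the TPM ran from 20.9% in Vehicle 1 to 33.6% in Vehicle 3. The part of these differences in the results was not tested. Read depth is unknown, since TPM does not keep it. Fewer cells of a type and less RNA per cell cannot be told apart in such bulk samples.

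All 8 genes passed the filter of 1 TPM or more in at least 3 libraries, which left 12781 genes tested. None of the 8 passed limma's test of PGE2 against Vehicle at a threshold of 0.05 after Benjamini-Hochberg adjustment, and none had an unadjusted p under 0.05. Over all tested genes 0 (0%) passed, and 464 (3.63%) had an unadjusted p under 0.05. The Sprouty genes Spry1 and Spry4 were the 2 members whose PGE2 values all lay below the Vehicle values, as did those of 4.84% of all tested genes, while Spred1 and Spred2 had close group means, at 50.9 and 48.2 TPM and at 43.4 and 40.2 TPM. In the fit 7 of the 8 members had a lower value with PGE2, beside 56.1% of all tested genes, and their median log2 change was -0.31, beside -0.068 for all tested genes.

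Spry2 was the most abundant of the 8 transcripts in both groups and Spred3 the least. In Vehicle the mean level was 55.4 ± 7.29 TPM for Spry2, 50.9 ± 3.10 for Spred1, 43.4 ± 6.04 for Spred2, 41.3 ± 13.3 for Spry4 and 34.3 ± 9.51 for Dusp6 (mean ± SD, n = 3 each). Lower still stood Spry1 at 15.8 ± 2.81, Dusp4 at 10.3 ± 1.04 and Spred3 at 2.72 ± 2.76 TPM (mean ± SD, n = 3 each). Neighbours in this order overlapped from Spry2 down to Dusp6 and lay apart from Dusp6 to Spry1, Spry1 to Dusp4 and Dusp4 to Spred3. In PGE2 the order was the same except that Dusp4, at 13.5 ± 9.18 TPM, stood above Spry1, at 8.10 ± 4.76 TPM (mean ± SD, n = 3 each), with overlapping values. There Spred2 lay apart from Spry4 and Spry1 apart from Spred3, and the other neighbours overlapped.

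**Figure D1:**
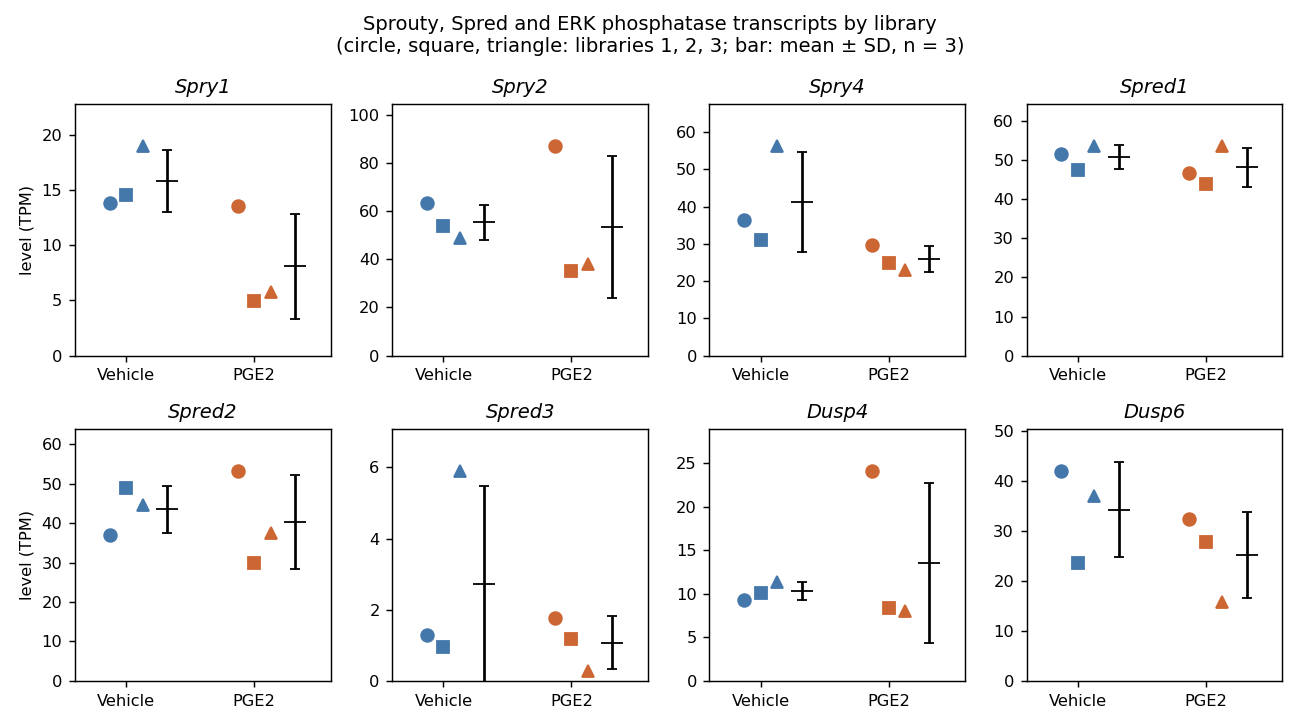
Level in TPM of the 8 genes in each library, Vehicle in blue and PGE2 in orange, with circles, squares and triangles for libraries 1, 2 and 3 and a bar for the mean ± SD (n = 3); each panel has its own axis from 0. The PGE2 points of Spry1 and Spry4 lie below all their Vehicle points, and for Spry2, Spred2 and Dusp4 the circle of PGE2 1 is the highest of the 6 (the lower end of the Spred3 Vehicle bar is below the axis).

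Spry1, an inhibitor of growth factor signalling, read 13.9, 14.6 and 19.1 TPM in the Vehicle libraries 1 to 3, against 13.6, 4.96 and 5.77 TPM with PGE2 in libraries 1 to 3. The groups did not overlap, but PGE2 1 lay just under the lowest Vehicle library, and the separation came from PGE2 2 and PGE2 3. Its log2 change (the PGE2 mean less the Vehicle mean of log2(TPM + 1)) was -0.99 (95% confidence interval -2.07 to 0.077, Benjamini-Hochberg adjusted p = 1.00 in limma), a fitted ratio of 0.502. Left out in turn, single libraries moved that change between -1.39 (without PGE2 1) and -0.75 (without PGE2 2), and over all alternatives the limma adjusted p ran from 0.582 to 1.00.

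Spry4, which acts on the RAS to ERK route like its relatives, read 36.4, 31.1 and 56.3 TPM in the Vehicle libraries, against 29.7, 24.8 and 22.97 TPM with PGE2. All 3 PGE2 libraries were low and close to each other, and Vehicle 3 stood above the other Vehicle libraries. The log2 change was -0.62 (95% confidence interval -1.40 to 0.16, Benjamini-Hochberg adjusted p = 1.00 in limma). Without Vehicle 3 it was -0.38.

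Spry2, a Sprouty that binds the ubiquitin ligase CBL and the adaptor GRB2, had groups that overlapped. It read 63.3, 54.1 and 48.9 TPM in the Vehicle libraries, against 87.4, 35.2 and 37.9 TPM with PGE2. PGE2 1 was above every Vehicle library, and PGE2 2 and PGE2 3 were below every one. The log2 change of -0.17 (95% confidence interval -1.04 to 0.70) was -0.58 without PGE2 1 and turned to 0.064 without PGE2 2 and to 0.011 without PGE2 3.

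Summed over the 3 genes, the Sprouty level was 113.5, 99.7 and 124.3 TPM in the Vehicle libraries, against 130.6, 65.0 and 66.7 TPM with PGE2. The sum thus overlapped between the groups through PGE2 1 alone, which had the highest sum of the 6 libraries. The share of Spry1 in the sum was 12.2%, 14.6% and 15.3% in Vehicle and 10.4%, 7.63% and 8.66% in PGE2. The other shares overlapped between Vehicle and PGE2, at 39.3% to 55.8% and 54.2% to 66.9% for Spry2, and 31.1% to 45.3% and 22.7% to 38.2% for Spry4. Set against Spry2 within each library, the TPM ratio of Spry1 to Spry2 was 0.219, 0.270 and 0.390 in Vehicle and 0.155, 0.141 and 0.152 in PGE2. All 3 PGE2 ratios, that of PGE2 1 included, lay below the Vehicle ratios, and the ratio varied less within PGE2 (0.150 ± 0.00759) than within Vehicle (0.293 ± 0.0876; mean ± SD, n = 3 each). This ratio was formed after the values were seen and was given no test. It reuses the Spry1 values, whose groups already did not overlap, and ratios of other gene pairs were not counted.

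**Figure D2:**
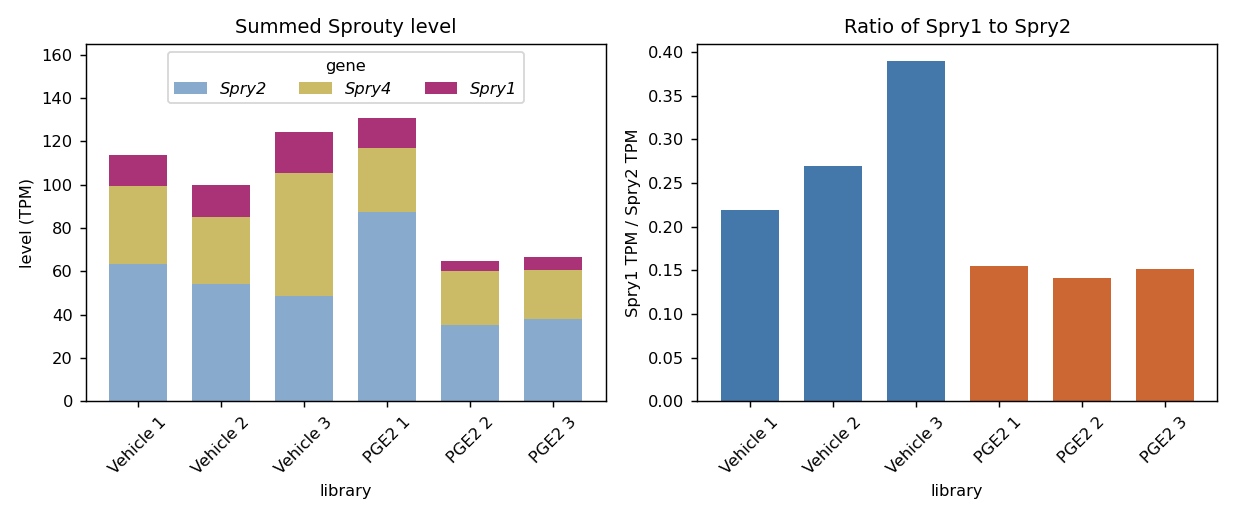
Left, level in TPM of Spry2, Spry4 and Spry1 stacked for each library; right, the ratio of Spry1 TPM to Spry2 TPM in each library, Vehicle in blue and PGE2 in orange. The summed level of PGE2 1 is the highest of the 6 at 130.6 TPM, while the ratio is 0.141 to 0.155 in the PGE2 libraries and 0.219 to 0.390 in the Vehicle libraries.

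Spred1, whose protein brings the RAS-inactivating protein neurofibromin to the membrane, was the steadiest member. It read 51.7, 47.5 and 53.6 TPM in the Vehicle libraries, against 46.8, 43.98 and 53.8 TPM with PGE2. The SD of log2(TPM + 1) was 0.087 within Vehicle and 0.15 within PGE2, and the groups overlapped. Its log2 change was -0.081 (95% confidence interval -0.73 to 0.57). The interval leaves room for a change in either direction, so the similar levels do not show that PGE2 had no effect on it.

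Spred2, a relative that also restrains RAF activation, read 36.95, 48.9 and 44.5 TPM in the Vehicle libraries, against 53.2, 29.8 and 37.6 TPM with PGE2. The highest and the lowest of the 6 values were both PGE2 libraries, PGE2 1 and PGE2 2. Its log2 change of -0.14 (95% confidence interval -0.89 to 0.61) was -0.36 without PGE2 1 and turned to 0.051 without PGE2 2. Spred3, the scarcest member, read 1.29, 0.96 and 5.90 TPM in the Vehicle libraries, against 1.77, 1.18 and 0.28 TPM with PGE2, near the filter. Vehicle 3 alone was high, and the log2 change of -0.67 (95% confidence interval -2.13 to 0.80) was -0.0997 without it. Spred3 overlaps Ggn, a gene on the opposite strand. Whether the counting used strand is not given in the sources used here, and Ggn was listed at 0 in 5 libraries and read 1.15 TPM in Vehicle 2.

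Dusp6, which encodes a cytoplasmic phosphatase that removes phosphate from ERK, was the more abundant of the 2 phosphatase transcripts. It read 42.0, 23.7 and 37.1 TPM in the Vehicle libraries, against 32.4, 27.7 and 15.7 TPM with PGE2. Vehicle 2 lay among the PGE2 values, and PGE2 3 was the lowest of all. The log2 change was -0.44 (95% confidence interval -1.33 to 0.44) and lay between -0.68 (without Vehicle 2) and -0.15 (without PGE2 3) with 1 library left out.

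Dusp4, which encodes a nuclear phosphatase of ERK and related kinases, read 9.32, 10.1 and 11.4 TPM in the Vehicle libraries, against 24.1, 8.41 and 8.02 TPM with PGE2. PGE2 1 was above every Vehicle library and the other PGE2 libraries were below every one, the same arrangement as for Spry2. Dusp4 was the only member with a positive fitted log2 change, 0.19 (95% confidence interval -0.93 to 1.31), and the sign turned without PGE2 1, at -0.29.

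**Figure D3:**
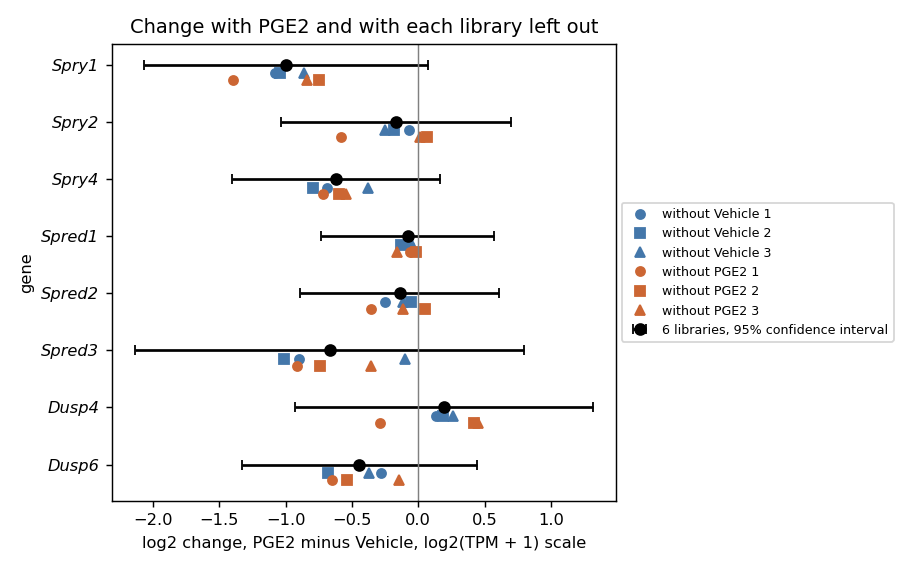
Log2 change with PGE2 for each gene on the log2(TPM + 1) scale: black points and bars are the limma estimate and its 95% confidence interval over 6 libraries, and coloured points are the estimate with 1 library left out. Every interval includes 0, and without PGE2 1 (orange circles) all 8 estimates are below 0, in a setting where the median of all tested genes was -0.17.

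Spry2, Spred2 and Dusp4 had their highest value in PGE2 1, which was the highest library for 37.5% of the members and 30.1% of all tested genes. Spry1, Spry4 and Spred3 had theirs in Vehicle 3. Spred1 was highest in PGE2 3 and Dusp6 in Vehicle 1. All 8 had their lowest value in PGE2 2 or PGE2 3, as did 54.5% of all tested genes, ties at the lowest value included. Likeness was measured as the mean absolute difference of log2(TPM + 1), each gene centred on its own mean, over the 6 libraries. By this measure the closest of the 28 pairs of members was Spry2 with Dusp4, at 0.22, followed by Spred1 with Spred2 at 0.25. The most distant was Spry2 with Spred3, at 0.64. Spry1 was closer to Spry4 (0.34) than to Spry2 (0.41).

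**Figure D4:**
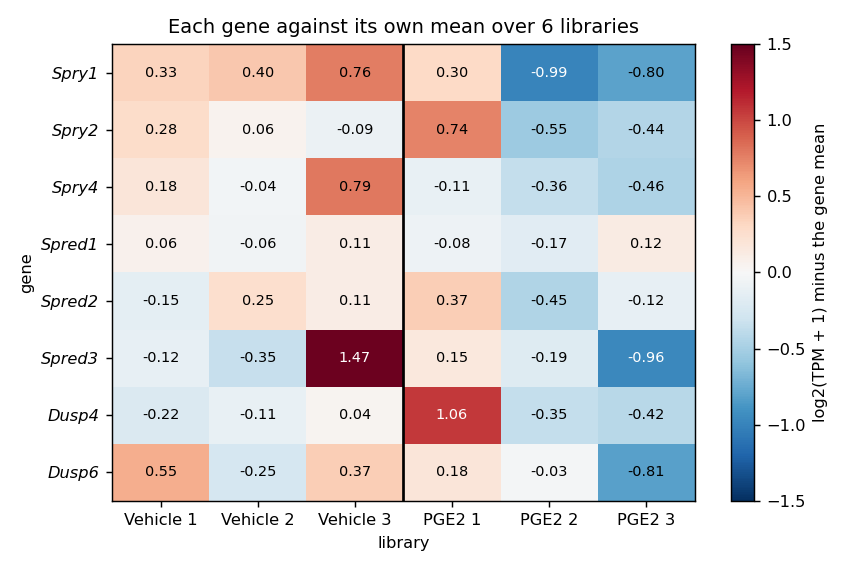
Log2(TPM + 1) of each gene (rows) in each library (columns) minus the mean of that gene over 6 libraries, with Vehicle left and PGE2 right of the line; red is above and blue below the mean. PGE2 2 is below the mean for all 8 genes and PGE2 3 for 7, whereas PGE2 1 is above it for 6, led by Dusp4 at 1.06. The same counts over all tested genes were not made. Of those genes, 30.1% were highest in PGE2 1 and 54.5% lowest in PGE2 2 or PGE2 3.

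The spread was wider in PGE2. The SD of log2(TPM + 1) was larger within PGE2 than within Vehicle for 6 of the 8 members (75%) and for 69.5% of all tested genes. Its median was 0.22 in Vehicle and 0.55 in PGE2 over the members, beside 0.43 and 0.66 over all tested genes. Spry4 and Spred3 had the wider spread in Vehicle, where Vehicle 3 stood high for both. Without PGE2 1 the median log2 change of the 8 members was -0.61 with 0 of 8 higher, and that of all tested genes was -0.17. The share of all tested genes higher in that setting was not counted. In limma 979 of the 12781 tested genes then had an unadjusted p under 0.05, beside 464 with all 6 libraries. No member passed limma's test in that setting either, and the smallest Benjamini-Hochberg adjusted p among them was 0.582, for Spry1.

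The rest of the pathway was read from 5 lists, in which none of the tested genes passed limma's test (0 of 73 after Benjamini-Hochberg adjustment, and 2 of 73, Spp1 among them, with an unadjusted p under 0.05). Of the other MAP kinase phosphatases, 7 of 8 were tested, with 3 higher and 4 lower fitted values and a median log2 change of -0.33. That median was -0.039 without Vehicle 3 and turned to 0.066, with 4 of 7 higher, without PGE2 3. Dusp9, Dusp10 and Dusp1 had the highest levels among them. Dusp9, a further ERK phosphatase, read 14.2, 19.4 and 25.9 TPM in the Vehicle libraries, against 28.8, 12.5 and 5.80 TPM with PGE2. Dusp10, which acts on the stress kinases JNK and p38, read 16.6, 19.7 and 21.02 TPM in the Vehicle libraries, against 8.32, 33.4 and 6.26 TPM with PGE2. The values of both genes in PGE2 lay on either side of the Vehicle range. Dusp1, an immediate early gene, read 6.04, 15.2 and 22.9 TPM in the Vehicle libraries, against 13.7, 24.5 and 7.44 TPM with PGE2, also overlapping.

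Of 20 other brakes and Sprouty or Spred partners, 18 were tested, 9 higher and 9 lower, with a median log2 change of -0.042. The median was -0.33 without PGE2 1 (4 of 18 higher) and turned to 0.15 without PGE2 2 (11 of 18 higher). Errfi1, which encodes an inhibitor of EGF receptors, read 294, 420 and 366 TPM in the Vehicle libraries, against 625, 243 and 324 TPM with PGE2. Pebp1, which encodes a protein that restrains RAF kinases, read 126.1, 110.2 and 94.5 TPM in the Vehicle libraries, against 237.9, 74.9 and 74.8 TPM with PGE2. For both, as for Spry2 and Dusp4, PGE2 1 was the highest library. That held for 12 of these 18 genes (66.7%), beside 30.1% of all tested genes. In the other lists it held for 1 of 7 phosphatase, 8 of 21 relay, 10 of 19 ERK-induced and 2 of 8 receptor genes. Rasa1, a GTPase-activating protein that turns RAS off, read 337, 269.8 and 401 TPM in the Vehicle libraries, against 217, 268 and 293 TPM with PGE2, with overlap. In 2 genes of this list all PGE2 values lay above the Vehicle values, as in 3.18% of all tested genes. Flrt3, 1 of them, which encodes an FGF receptor partner, was picked out after its values were seen and stayed low, at 0.85, 0.90 and 0.92 TPM in the Vehicle libraries, against 2.11, 1.09 and 1.12 TPM with PGE2.

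Of 23 genes of the relay from receptor adaptors to ERK, 21 were tested, 10 higher and 11 lower, with a median log2 change of -0.020. Leaving out 1 library moved it between -0.15 (without Vehicle 3) and 0.075 (without PGE2 3), and median-ratio scaling and quantile normalization turned it to 0.036 and 0.039. The RAS gene Nras and the MEK gene Map2k1 were among the most abundant. Nras read 143.8, 149.1 and 142.9 TPM in the Vehicle libraries, against 159.6, 88.3 and 112.4 TPM with PGE2. Map2k1 read 85.6, 86.7 and 43.8 TPM in the Vehicle libraries, against 98.7, 106.9 and 55.3 TPM with PGE2. Both overlapped between the groups. Araf and Frs2 were the 2 of 21 relay genes whose PGE2 values all lay below the Vehicle values, beside 4.84% of all tested genes. Frs2, the adaptor that couples FGF receptors to the cascade, read 18.5, 18.3 and 20.2 TPM in the Vehicle libraries, against 13.4, 7.99 and 12.6 TPM with PGE2. Its log2 change was -0.73 (95% confidence interval -1.60 to 0.15, Benjamini-Hochberg adjusted p = 1.00 in limma). Araf, a RAF kinase gene, read 47.6, 24.1 and 21.8 TPM in the Vehicle libraries, against 18.9, 17.4 and 15.6 TPM with PGE2, with Vehicle 1 far above the rest.

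Of 20 genes that ERK is known to induce, 19 were tested, 7 higher and 12 lower, with a median log2 change of -0.13. That median was -0.0074 without Vehicle 3 and turned to 0.11, with 11 of 19 higher, without PGE2 3. Spp1, which encodes the secreted protein osteopontin, had the highest level of the list, at 749, 970 and 634 TPM in the Vehicle libraries, against 2691, 1528 and 1629 TPM with PGE2. Each PGE2 library was above each Vehicle library. The log2 change of 1.29 (95% confidence interval 0.50 to 2.08), or 2.44-fold, did not pass limma's test (Benjamini-Hochberg adjusted p = 1.00). Plaur, the urokinase receptor gene, lay the other way at 19.8, 17.4 and 22.2 TPM in the Vehicle libraries, against 3.73, 16.96 and 15.4 TPM with PGE2, where Vehicle 2 and PGE2 2 nearly met. The cyclin Ccnd1 read 647, 735 and 683 TPM in the Vehicle libraries, against 792, 498 and 628 TPM with PGE2, and Hmga2, a chromatin protein gene, read 357, 342 and 394 TPM in the Vehicle libraries, against 418, 263 and 284 TPM with PGE2. In both, PGE2 1 was the highest library. The ETS factor gene Etv5 and the immediate early gene Egr1, often used as ERK readouts, were picked out after their values were seen. Etv5 read 8.79, 9.94 and 16.0 TPM in the Vehicle libraries, against 19.6, 6.06 and 7.45 TPM with PGE2, and Egr1 read 214, 104.4 and 98.5 TPM in the Vehicle libraries, against 145, 135 and 81.8 TPM with PGE2. Etv5 thus had the arrangement of Spry2 and Dusp4, with PGE2 1 above and PGE2 2 and PGE2 3 below all Vehicle libraries, and Egr1 overlapped. Etv4, Myc, Srf, Ccnd1 and Hmga2 had this arrangement too. The other tested genes of the list did not. Among them, the fitted log2 change was 1.30 for Fos (95% confidence interval -0.90 to 3.51) and 1.08 for Ier3 (-0.15 to 2.31). It was -1.02 for Egr2 (-2.73 to 0.68). The groups overlapped for all of these, and Fos was high in PGE2 2 alone, at 34.2 TPM. PGE2 1 was the highest library for 30.1% of all tested genes, and PGE2 2 or PGE2 3 the lowest for 54.5%. The share with the full arrangement was not counted, so the arrangement is not read as particular to these genes.

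Of 13 growth factor receptor genes, 8 were tested, 1 higher and 7 lower, with a median log2 change of -0.34. It was -0.13 without PGE2 3 (3 of 8 higher) and -0.16 with no filter on low values (3 of 12 higher). Met, the HGF receptor gene, had the highest level, at 147, 122 and 169.8 TPM in the Vehicle libraries, against 209.5, 73.5 and 89.5 TPM with PGE2. PGE2 1 was again above and PGE2 2 and PGE2 3 below every Vehicle library. Egfr, the EGF receptor gene, read 33.3, 54.3 and 49.8 TPM in the Vehicle libraries, against 32.6, 31.2 and 41.2 TPM with PGE2, and Fgfr1, the most abundant FGF receptor gene here, read 43.5, 50.2 and 28.6 TPM in the Vehicle libraries, against 44.4, 25.4 and 28.3 TPM with PGE2. Both overlapped. Fgfr2, named after its values were seen as the 1 receptor gene with a higher fitted value, read 0.73, 1.25 and 0.44 TPM in the Vehicle libraries, against 2.03, 2.01 and 4.46 TPM with PGE2.

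**Figure D5:**
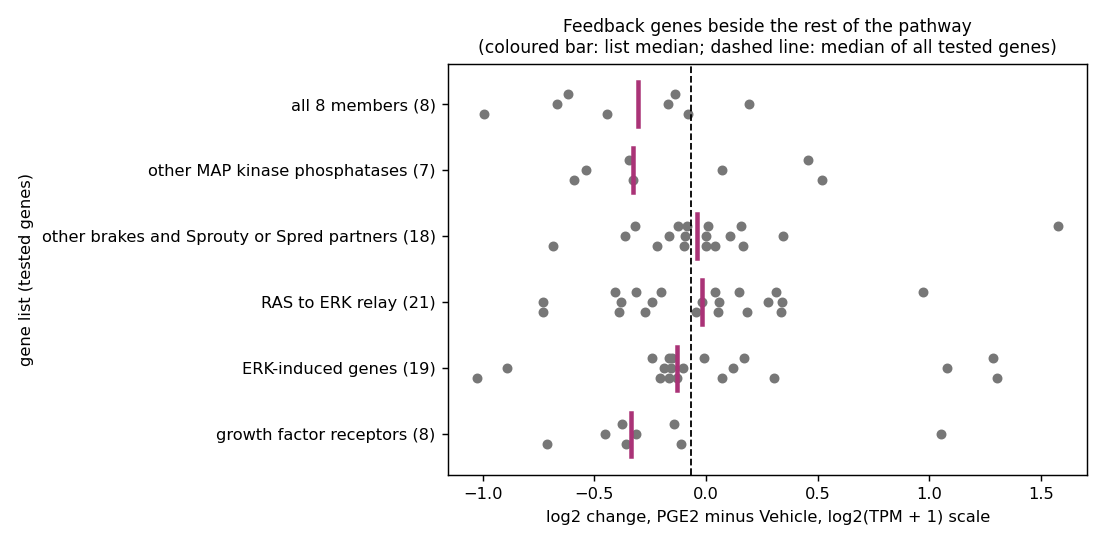
Log2 change with PGE2 (log2(TPM + 1) scale) of each tested gene, 1 point per gene, in the 8 feedback genes and the 5 other pathway lists; numbers in parentheses are tested genes, coloured bars are list medians and the dashed line is the median of all tested genes at -0.068. Medians lie between -0.34 (growth factor receptors) and -0.020 (relay), and each list has points on both sides of 0.

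The genes most like the leading member of each family were sought among the 8370 tested genes at 5 TPM or higher on average, by the same mean absolute difference over 6 libraries. For Spry2 they were Akap9 (0.051), Peg3 (0.067) and Chtop (0.069). Akap9, an anchoring protein gene for protein kinase A, read 49.4, 47.1 and 37.5 TPM in the Vehicle libraries, against 66.1, 27.4 and 27.9 TPM with PGE2, high in PGE2 1 and low in PGE2 2 and PGE2 3 as Spry2 was. For Spred1 they were Pum2 (0.045), Map3k7 (0.050) and Cacna2d1 (0.053), and Pum2, an RNA-binding protein gene, ran only from 136 to 188 TPM over the 6 libraries. For Dusp6 they were Sox9 (0.025), Cdk2 (0.070) and Mzt1 (0.105). Sox9, a transcription factor gene, read 32.1, 18.8 and 29.9 TPM in the Vehicle libraries, against 25.8, 22.4 and 12.2 TPM with PGE2, so that both genes were highest in Vehicle 1 and lowest in PGE2 3. With so many genes and 6 libraries, some such close profiles are found for any gene, and the distances are given as a description.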

How the data were processed

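Expression was measured by RNA sequencing in 3 Vehicle and 3 PGE2 libraries. Per the labels' protocols, RNA was extracted with a Qiagen micro kit and cDNA was amplified with NuGEN Ovation v2. STAR, RSEM and mm10 are named in the submitters' processing notes, without versions or settings. The authors deposited 1 table whose values were read as TPM, since the columns hold decimals and total 992357 to 995645. Depth is lost in TPM, so no counting interval is given.

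PGE2 was compared with Vehicle by limma 3.58.1 in R 4.3.3 on log2(TPM + 1) (mean trend, not robust), two-sided, with Benjamini-Hochberg adjustment over the 12781 genes at 1 TPM or more in at least 3 libraries. The pseudocount understates changes of low genes. The fit was also run on simulated data with independent noise of equal spread in both groups. The spread here was wider in PGE2 for most genes, so that run does not show how the fit performs on these libraries. The members, lists and naming rule were chosen with earlier results of these data known. The rule names, per list, the 3 tested genes of highest mean TPM and those at a mean of 5 TPM or more whose groups do not overlap. Annotation came from GENCODE M21, promoter sequence from RefSeq. Spry3 is not analysed here, and a few genes that the rule or a count would name are not reported here. Python 3.11.15 made tables and figures. Alternatives covered pseudocount, filter, scaling, prior, weights, replicate block and each library left out.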

Additional observations from a re-analysis of the deposited data

How the results depend on the processing

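No member passed the threshold under any of the 17 alternatives. Over all genes, 0 passed, and 1 passed with a robust prior, 4 with no mean trend in the prior and 0 to 2 with 1 library left out; the cause was not tested. With the replicate number as a block 0 genes passed. The numbers were not taken to pair the libraries, since deviations of same-numbered libraries correlated at -0.062, -0.044 and 0.070. The log2 changes of Spry1, Spry4, Spred1, Spred3 and Dusp6 kept their sign throughout (Spred3 could not be fitted with a filter of 5 TPM). With 1 library left out, the log2 change ran from -0.58 to 0.064 for Spry2, -0.36 to 0.051 for Spred2, -0.29 to 0.45 for Dusp4, -0.42 to 0.47 for Dusp1, -0.34 to 0.34 for Errfi1, -0.54 to 0.28 for Pebp1, -0.043 to 0.57 for Map2k1 and -0.30 to 0.038 for Ccnd1. Library weights turned Dusp1 to -0.060, Errfi1 to -0.17 and Pebp1 to -0.20. Leaving out mitochondrial genes turned Pebp1 to -0.019. The median of the 8 members lay between -0.61 and -0.15. With 1 library left out, the medians of the other lists ran from -0.51 to 0.066 (phosphatases), -0.33 to 0.15 (brakes), -0.15 to 0.075 (relay), -0.22 to 0.11 (ERK-induced) and -0.50 to -0.13 (receptors), and those of the member families from -0.795 to -0.38 (Sprouty), -0.36 to -0.019 (Spred) and -0.47 to 0.15 (Dusp4 and Dusp6). Depth, unknown here, limits the low transcripts such as Spred3 most.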
